A study of Mus musculus with 3 samples.

Results

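The methylated regions of epididymal fat from mice on a normal diet were described from 1 library of methylated DNA immunoprecipitation sequencing (MeDIP-seq), a method in which an antibody against 5-methylcytosine pulls down methylated fragments and enriched stretches are called as peaks. The members were all peaks on the 19 autosomes of that library's list, which came to 96063 of its 101532 peaks, and to 96063 of the 332157 peaks in the 3 lists of the series. The mice were male C57BL/6J animals, 6 weeks old at the start, kept for 10 weeks on a diet with about 10% of its energy from fat, and 16 weeks old at harvest of the epididymal fat pad. The series also holds 1 library each from a high-fat diet and from a high-fat diet with folic acid in the drinking water, and these were not compared here. The sources used here do not say if the DNA came from 1 animal or from several pooled together. With 1 library there is no replicate spread, so every value below describes this library and no test was run. The 95% intervals cover counting error only.

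In mammals the methyl mark sits on cytosines of CpG dinucleotides, and most CpGs of a somatic genome carry it. CpG islands, the CpG-dense stretches at the starts of many genes, are the main exception and usually lack the mark in tissues where they were studied. Transcribed gene bodies are generally methylated, and a set of germline genes is kept silent in somatic tissue by methylation of CpG-rich promoters. Fat pads hold adipocytes together with vessel, immune and mesothelial cells, so a peak cannot be assigned to one of them.

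To show what marked and unmarked promoters look like, 200 bases before the start of 8 genes are printed here from RefSeq (build GRCm38.p6, the assembly of mm10), 5′ to 3′ on the gene's strand, with every CpG in capitals. The promoter table covers 300 bases of each start, 250 before it and 50 after it, and had an entry for 16456 of the 20661 autosomal protein-coding gene records. The first 4 are the germline genes with the highest-scoring peak over a promoter, followed by the keratin gene with the highest one, the 2 unmarked housekeeping genes with the most CpGs and an unmarked olfactory receptor gene without a CpG.
Tdrd12, chr7:35537716-35537915, minus strand: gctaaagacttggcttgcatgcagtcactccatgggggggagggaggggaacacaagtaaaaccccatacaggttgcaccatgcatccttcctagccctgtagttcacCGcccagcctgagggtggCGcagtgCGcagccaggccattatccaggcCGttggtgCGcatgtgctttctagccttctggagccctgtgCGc
Dazl, chr17:50293621-50293820, minus strand: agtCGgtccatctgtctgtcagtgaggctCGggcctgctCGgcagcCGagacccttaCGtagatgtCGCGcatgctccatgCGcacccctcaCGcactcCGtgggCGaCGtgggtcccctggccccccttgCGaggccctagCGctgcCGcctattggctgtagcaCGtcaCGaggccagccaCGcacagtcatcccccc
Fkbp6, chr5:135349914-135350113, minus strand: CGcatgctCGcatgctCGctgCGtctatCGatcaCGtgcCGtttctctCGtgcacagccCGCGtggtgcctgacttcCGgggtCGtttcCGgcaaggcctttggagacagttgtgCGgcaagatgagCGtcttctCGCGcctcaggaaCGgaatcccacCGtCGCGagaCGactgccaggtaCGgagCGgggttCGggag
Tex101, chr7:24672051-24672250, minus strand: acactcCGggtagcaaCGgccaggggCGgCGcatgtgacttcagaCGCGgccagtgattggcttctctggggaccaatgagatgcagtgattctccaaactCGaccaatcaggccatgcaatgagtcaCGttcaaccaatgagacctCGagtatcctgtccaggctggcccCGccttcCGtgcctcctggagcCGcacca
Krt75, chr15:101573905-101574104, minus strand: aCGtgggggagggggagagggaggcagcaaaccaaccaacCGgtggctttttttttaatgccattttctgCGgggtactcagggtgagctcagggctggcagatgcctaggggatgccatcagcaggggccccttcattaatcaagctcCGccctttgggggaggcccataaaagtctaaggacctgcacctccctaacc
Ran, chr5:129019956-129020155, plus strand: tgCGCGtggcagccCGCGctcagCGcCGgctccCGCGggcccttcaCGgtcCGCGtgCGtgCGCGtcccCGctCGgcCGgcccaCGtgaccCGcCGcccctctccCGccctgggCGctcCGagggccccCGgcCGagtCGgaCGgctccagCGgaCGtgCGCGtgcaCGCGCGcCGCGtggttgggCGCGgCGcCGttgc
Ppia, chr11:6415667-6415866, plus strand: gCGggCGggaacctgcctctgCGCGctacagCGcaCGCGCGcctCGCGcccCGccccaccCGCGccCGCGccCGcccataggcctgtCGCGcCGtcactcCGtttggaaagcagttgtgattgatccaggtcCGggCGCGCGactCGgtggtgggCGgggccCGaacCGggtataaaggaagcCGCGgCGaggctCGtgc
Olfr1006, chr2:85678742-85678941, minus strand: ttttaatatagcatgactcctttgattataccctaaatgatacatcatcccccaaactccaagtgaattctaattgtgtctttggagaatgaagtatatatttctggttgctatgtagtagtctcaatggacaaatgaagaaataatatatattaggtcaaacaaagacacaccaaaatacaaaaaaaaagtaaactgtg

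Tdrd12, a gene of the piRNA pathway that silences transposons in germ cells, had 6 CpGs in the printed stretch, and a peak of 553 bp with a score of 664 covered 143 of the 200 bases. Dazl, which encodes an RNA-binding protein of germ cells, had 18 CpGs there and lay whole under a peak of 1065 bp (score 581). Fkbp6, needed for meiosis and piRNA production, had 25 CpGs and a peak of 1178 bp (score 473), and Tex101, a sperm maturation gene, had 12 CpGs and a peak of 609 bp (score 346). Krt75, a hair follicle keratin gene, had 4 CpGs, and its peak (score 376) covered 83 of the 200 bases. Ran, the gene of a nuclear transport GTPase, and Ppia, which encodes cyclophilin A, had 40 and 32 CpGs and no peak. The unmarked housekeeping promoters held more CpGs than any of the marked ones shown, and the unmarked Olfr1006 promoter held none. Both follow from how these genes were chosen and are not a result. The score is the authors' own value for each peak. Its scale is not stated, so it ranks peaks within this list only.

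Promoters of intermediate CpG content carried a peak most often. For each of 20084 promoter windows of autosomal protein-coding genes, the CpG observed/expected ratio was computed, which is the number of CpGs divided by the number that the window's C and G content would give by chance order. A peak overlapped 487 windows, 2.42% of them. The share was 1.80% (77 of 4290, Wilson 95% interval 1.44 to 2.24%) at a ratio under 0.2, and 4.53% (155 of 3424, 3.88 to 5.28%) between 0.2 and 0.4. It was highest, 5.43% (138 of 2541, 4.61 to 6.38%), between 0.4 and 0.6. Above that it fell to 2.03% (81 of 3987) between 0.6 and 0.8, 0.769% (32 of 4160, 0.545 to 1.08%) between 0.8 and 1.0, and 0.238% (4 of 1682, 0.0925 to 0.610%) at 1.0 or more. The interval of the top class does not touch those of the lowest class or of the classes above 0.6. Several windows of 1 gene can overlap, so the counts behind these intervals are not fully independent.

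**Figure D1:**
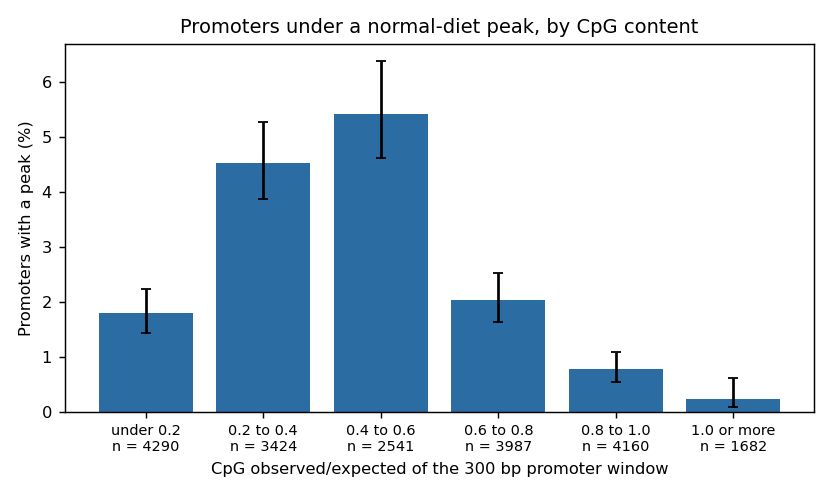
Share of promoter windows overlapped by a peak (y axis, percent) in 6 classes of the CpG observed/expected ratio of the window (x axis, with the number of windows), in the normal-diet library; bars are shares and error bars Wilson 95% intervals for counting error. The share peaks at 5.43% between 0.4 and 0.6 and is 0.238% at 1.0 or more.

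Counted by CpGs per 300-base window, the share was 0.452% (4 of 884) with no CpG, 1.52% with 1 to 2, 3.19% with 3 to 5 and 7.55% (192 of 2544, 6.58 to 8.64%) with 6 to 10. It was 4.11% with 11 to 15, 1.60% with 16 to 20, 0.911% with 21 to 30 and 0.239% (7 of 2928) with 31 or more. Marked windows had a median of 8 CpGs (quartiles 5 and 12) and unmarked ones a median of 14 (quartiles 4 and 25). The median score of the peaks, from the lowest CpG ratio class to the highest, was 105, 94.3, 114, 118, 198 and 98.1, the last over 4 promoters. MeDIP recovers a fragment in proportion to its methylated CpGs, so a missing peak at a CpG-poor promoter does not show that its CpGs lack the mark.

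The 9 highest-scoring promoter peaks (935 to 2396) all lay at provisional gene models (Gm symbols), which are not described further. Symbols ending in Rik were passed over as well, among them 1700029P11Rik (571.5), which scored above Hsf2bp. Of the 8 other genes with the highest-scoring promoter peak, D1Pas1 (score 771, 15 CpGs), a testis-expressed RNA helicase gene, came first. Tmem267 followed (731, 50 CpGs), and it was the most CpG-dense of the 8, with a ratio of 1.16. Tdrd12 (664), the vomeronasal receptor gene Vmn2r29 (652, 23 CpGs) and Duxf3 (651, 3 CpGs), a copy of the double homeobox gene array, came next. Taf7l2 (606, 22 CpGs), Dazl (581) and Hsf2bp (549, 20 CpGs), a gene of meiotic recombination, completed the set. The peak of D1Pas1 was 2285 bp wide (chr1:186966747-186969031) and had its midpoint 473 bp past the start. The peak of Dazl (chr17:50293139-50294203) was centred at -51 bp relative to the start.

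Members of the germline list were marked at their starts. Of 49 germline genes with a promoter sequence, 27 (55.1%, 41.3 to 68.1%) had a promoter peak, where 2.78% of the 16456 genes with a promoter sequence did. In windows from 2000 bp before to 500 bp past the start of the record, 27 of the 49 had a peak, against 10.3% of all genes. At the other end of the record 6 of 49 did (12.2%, against 14.8% of all genes). The genes marked in the start window are not all those with a promoter peak, since a promoter can lie inside the record. Fkbp6, Stra8 and Mei1 had a promoter peak and none in a gene-end window. The germline promoters carried peaks in CpG classes where few other promoters did. Between ratios of 0.6 and 0.8, 11 of 16 germline windows were marked, against 2.03% of all windows, and between 0.8 and 1.0, 7 of 12 were, against 0.769%. These are counts of windows, and 1 gene can have several. None of 6 germline windows was marked at 1.0 or more.

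The marked germline genes covered several steps of germ cell development. Among the synaptonemal complex genes, which pair chromosomes in meiosis, Sycp2 (score 310), Sycp1 (302), Tex12 (296), Syce1 (208), Sycp3 (191) and Syce3 (141) had promoter peaks, and Syce2, with up to 33 CpGs in its window, had none. In the piRNA pathway, Asz1 (277), Tdrd9 (274), Mov10l1 (258), Piwil1 (164), Piwil4 (104), Mael (84.2) and Tdrd1 (79.3) were marked beside Tdrd12 and Fkbp6. Tdrd7 (up to 32 CpGs), Pld6 (25) and Gtsf1 (13) of the same pathway were not. Ddx4, the germ cell helicase gene also known as vasa, had 38 CpGs and a weak peak (99.2), just under the list-wide median score of 100.3. Stra8, the gate to meiosis (254), Brdt, a testis bromodomain gene (206), and Hormad1 (283), which monitors chromosome pairing, were marked too. Unmarked members with CpG-rich windows included Tdrd5 (48 CpGs), Boll (39), Stag3 (30) and Smc1b (29). The germline list was assembled from general knowledge with an earlier account of these data known.

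Imprinted genes, which are expressed mainly from 1 parental copy, held promoter peaks at 10 of 39 members (25.6%, 14.6 to 41.1%), against 2.78% of all genes. The highest was at Mcts2 (392.1), a retrogene inside H13, followed by Gnas (293), Peg3 and Usp29, which share a peak (217), Nnat (162), Commd1 (152), Mest (122) and Grb10 (116). Igf2r (63.3) and Plagl1 (62.8) had weak ones. Peg10 and Sgce, a divergent pair controlled together, shared a gene-end peak of 1835 bp (chr6:4746809-4748643, score 292). Their promoters were not in the table. At either end of the record 22 of 49 imprinted genes had a peak (44.9%, against 23.2% of all records).

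Of 45 housekeeping genes with a promoter sequence, 0 had a promoter peak. The Wilson upper bound is 7.87%, which includes the 2.78% of all genes, so the count is not distinguishable from the background. Their windows had a median of 24 CpGs, where all windows had 14. With the wider windows, 2 of 45 had a peak at the start (4.44%, against 10.3% of all genes) and 5 of 45 at the end (11.1%, against 14.8%). The gene-end peaks of U2af1, a splicing factor gene (216), Gapdh (113), Sf3b1 (104) and Pkm (84.4) were the highest of 9 among 55 members (16.4%, against 23.2% of all records).

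The start and the end of genes differed: peaks thinned out at the start and were densest just inside the end. Peak midpoints were counted in steps of 1 kb around the start and the end of 16456 gene records whose strand the promoter table gives. For the inside only records long enough to hold the step were used. Steps outside a record can fall inside a neighbouring one, so they are not the density between genes given below. Density fell toward the gene start, from 54.7 peaks per Mb at 9 to 10 kb before it to 26.5 in the last kb (436 peaks), and rose again to 34.6 in the first kb inside (529 peaks over 15284 records) and 56.8 at 3 to 4 kb. Toward the other end it rose, from 61.8 peaks per Mb at 9 to 10 kb before the gene end to 91.7 and 85.2 in the last 2 steps (1333 and 1302 peaks). Past the gene end it dropped at once to 41.0 (675 peaks). The last kb of genes thus held 3.21 times the peaks per Mb of the kb before their start (2.89 to 3.58, counting error). Median scores varied less and lay between 89.1 and 104 in all 40 steps.

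**Figure D2:**
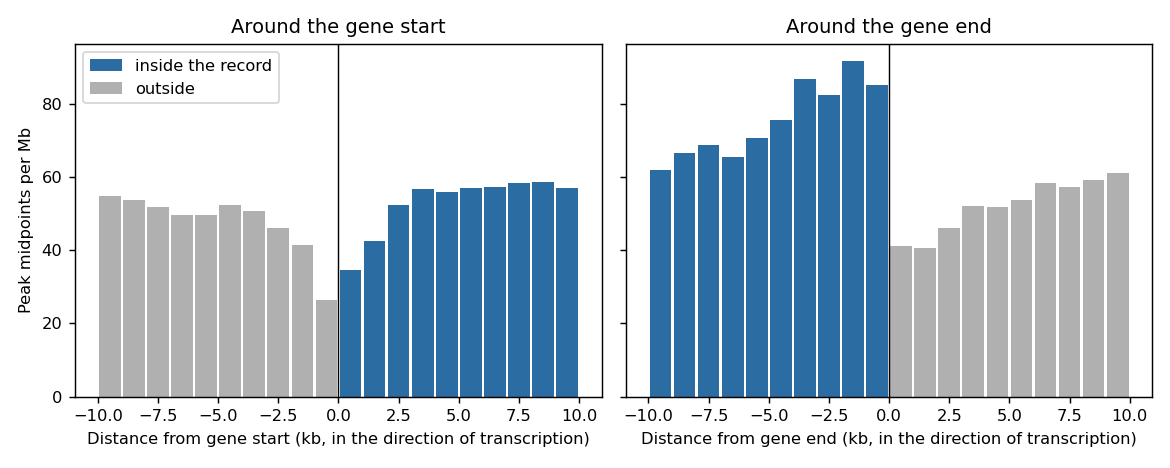
Peak midpoints per Mb (y axis) in 1 kb steps from 10 kb before to 10 kb after the gene start (left) and the gene end (right), in the direction of transcription. Blue bars lie inside the gene record and grey bars outside it, where neighbouring records can fall. The lowest bar, 26.5, is the kb before the start and the highest, 91.7, lies 1 to 2 kb before the gene end.

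The same slope ran along whole records. In 7569 records of 20 kb or more, cut into 10 equal parts, density rose at each part from 33.5 peaks per Mb in the first (2377 peaks) to 62.0 in the last (4398 peaks). In windows from 2000 bp outside to 500 bp inside, 10.3% of the 16456 genes had a peak at the start (1688, 9.80 to 10.7%) and 14.8% at the end (2438, 14.3 to 15.4%), and 367 had both. The exon and intron structure was not used here, so the peaks of the last kb cannot be placed in coding exons or in the 3′ untranslated region.

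Over all features, peaks were densest inside gene records and had the highest median score between genes. By midpoint, 44308 peaks (46.1%) lay inside protein-coding records, 3992 (4.16%) in gene-end windows, which here take in both the start and the end, and 47763 (49.7%) between genes. Per Mb of each feature this came to 46.6 peaks inside records, 41.9 in gene-end windows and 34.5 between genes, so that records held 1.35 times the density found between genes. Without the 105 coding records below 3 Mb, where there are no peaks, the densities were 46.6, 42.1 and 35.2 and the ratio 1.32. The median score was highest between genes, at 104, against 96.3 inside records and 94.3 in gene-end windows. Median widths were 523 bp between genes, 486 bp inside records and 486 bp in gene-end windows. The top decile of the list by score (278 or more) took in 12.5% of the peaks between genes (12.2 to 12.8%), 7.50% of those inside records (7.26 to 7.75%) and 7.36% of those in gene-end windows (6.59 to 8.22%). In that decile 62.4% of peaks lay between genes, where the shares in the 9 lower deciles ran from 46.2 to 51.6%. At scores of 1000 or more the counts were close, with 82 peaks between genes and 79 inside records, beside 7 in gene-end windows.

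**Figure D3:**
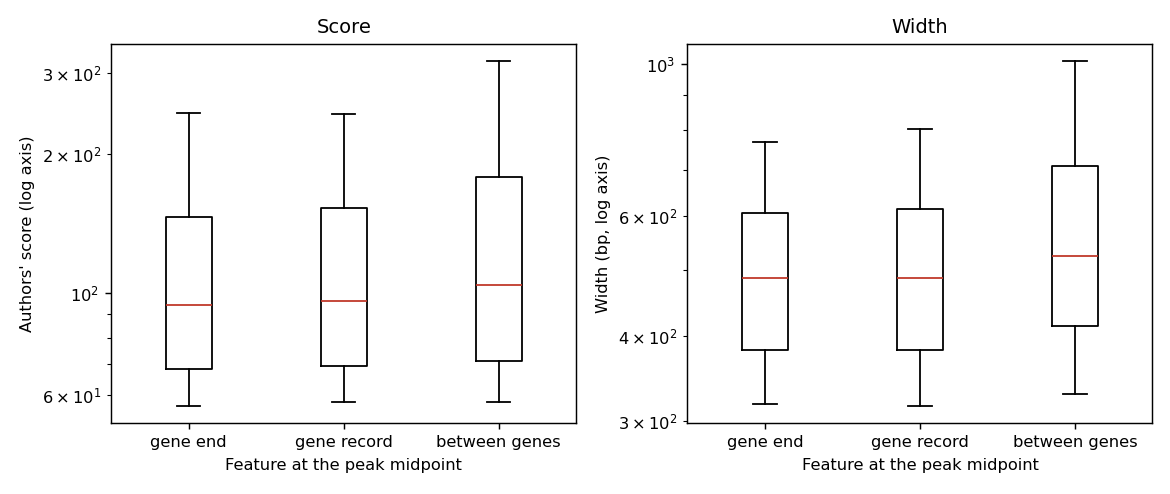
Authors' score (left, log axis) and width in bp (right, log axis) of peaks whose midpoint lies in a gene-end window, inside a gene record or between genes; boxes give the median and quartiles and whiskers the 10th and 90th percentiles. The medians are close, and the upper whisker of peaks between genes reaches 318 in score and 1010 bp in width, against 245 and 803 bp inside records.

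Peaks between genes were sparsest and had the highest median score beyond 200 kb from a coding record, while density was highest at 10 to 50 kb. At 2 to 10 kb from the nearest protein-coding record there were 42.7 peaks per Mb with a median score of 97.6, at 10 to 50 kb 45.3 with 102, at 50 to 200 kb 34.4 with 104, and beyond 200 kb 23.7 with 114. Median width rose from 498 to 559 bp over the same range. Of the peaks between genes, 17.2% (8208) lay inside a record that is not protein-coding. Score and width were related among peaks between genes (Spearman rho 0.40 over 47763 peaks) and less so inside records (0.24 over 44308). Over the whole list rho was 0.32. How the authors' score depends on width is not stated.

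Most peaks were short and of modest score. The median width was 504 bp (10th and 90th percentiles 322 and 907) and the widest was 8737 bp, with a score of only 97.5. The median score was 100.3, the upper quartile was 165, and 168 reached 1000. Only 998 peaks were 2000 bp or wider. The lowest score was 50. At the top, 9 peaks had a score of exactly 3100 and 1 a score of 3109, so that scores pile up at 3100 and the order of these 10 peaks is not read. Of these, 7 lay between genes by midpoint and 3 inside records, and their widths ran from 500 to 4576 bp.

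The peaks covered 55.9 Mb, which is 2.30% of the 2433 Mb between the first and the last record or peak of each autosome. Density was 39.5 peaks per Mb, and it ranged from 34.4 on chromosome 14 to 46.8 on chromosome 17. Without the records below 3 Mb the range was 34.6 on chromosome 3 to 48.3 on chromosome 17. Median scores per chromosome lay between 94.8 and 104. Across 2405 whole windows of 1 Mb the median was 36 peaks, the 10th and 90th percentiles were 18.4 and 68, and 20 windows held none. All 20 lie in stretches reached only through records below 3 Mb, and without those records (2375 windows) the lowest count was 3. Windows with no protein-coding record had a median of 22 peaks (284 windows), those with 1 to 19 records 37 (1856 windows) and those with 20 or more 55 (265 windows). Spearman rho between peaks and records was 0.66 over these windows, which share the same library and differ in base composition, so it is given as a description only.

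The window with the most peaks, 123, lay on chromosome 5 from 114000001 to 115000000 and holds 24 protein-coding records, among them Acacb, an acetyl-CoA carboxylase gene of fatty acid metabolism, Ung, a DNA repair gene, and Mvk of the mevalonate pathway. The next, with 115 peaks, lay on chromosome 15 from 97000001 to 98000000, with Slc38a4, Hdac7, Vdr and Col2a1. The third, with 110, lay on chromosome 4 from 141000001 to 142000000, with Crocc, Epha2 and Atp13a2. Their median scores (88.6, 95.7 and 86.8) were below the list's median of 100.3, so the crowded windows held many modest peaks. Neighbouring peaks lay a median of 13223 bp apart, and 7.22% of the gaps were under 1000 bp. The scores of neighbours were almost unrelated (Spearman rho 0.03 over 96044 pairs).

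Counted per gene, 13766 of 20661 protein-coding records (66.6%, 66.0 to 67.3%) had at least 1 peak in the record or within 2000 bp of it, and 4790 (23.2%, 22.6 to 23.8%) had one in a gene-end window. The median was 1 peak per record and the mean 2.46. There were 4725 records with exactly 1, 1042 with 10 or more and 221 with 20 or more. Longer records held more (Spearman rho 0.70 over 20661 records). The share with a peak rose from 17.7% of records under 2 kb to 52.5% at 5 to 10 kb, 81.8% at 20 to 50 kb and 97.5% at 100 to 200 kb, and all 215 records of 500 kb or more had one. Per Mb of record and flank, density was highest at 5 to 10 kb (67.2), close to that at 2 to 5 kb (66.4) and 10 to 20 kb (64.8), and fell to 39.5 at 200 to 500 kb and 25.8 at 500 kb or more. The share with a gene-end peak, whose window does not grow with the gene, stayed between 21.4 and 27.0% for lengths from 2 to 500 kb.

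**Figure D4:**
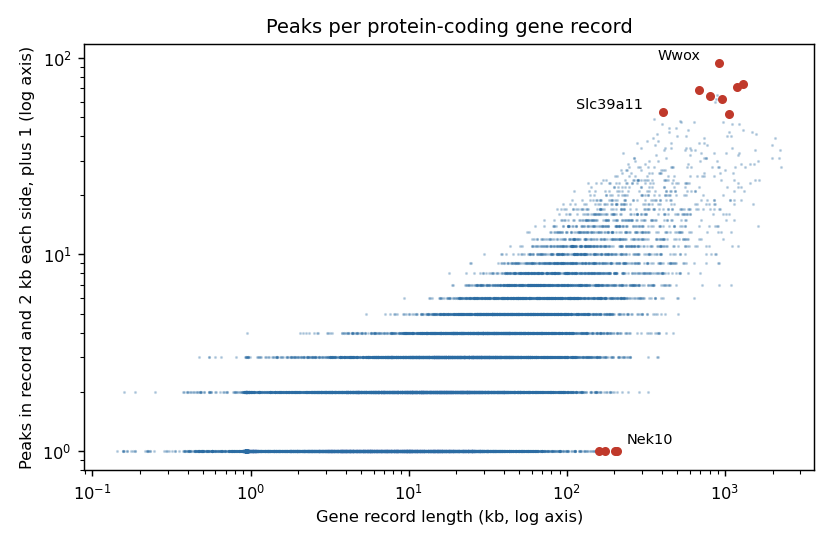
Peaks in each protein-coding record and 2 kb on each side, plus 1 (y axis, log), against record length in kb (x axis, log), 1 point per record; red points are the 8 records with the most peaks and 4 of the 5 longest records with none. The number of peaks rises with length, up to 93 in Wwox, while Nek10, at 208 kb, has none.

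The records with the most peaks were those of very long genes. Wwox, a fragile-site gene that encodes an oxidoreductase, held 93 peaks in 913 kb (101 per Mb with flanks), with a median score of 84.8 and a top score of 485. Tenm3, a teneurin gene of neural wiring, held 73, Cdh13, which encodes the adiponectin-binding T-cadherin, 70, and Zfhx3, a homeobox gene, 68. Camta1 (63), Sox5 (61), Slc39a11 (52) and Rbms3 (51) followed. Size alone did not order them: Tenm3 and Cdh13 are longer than Wwox but had 56.1 and 58.9 peaks per Mb, whereas Slc39a11, a zinc transporter gene of 405 kb, had 127. No peak overlapped the gene-end windows of Wwox or Zfhx3.

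Densest for their size, among records with 10 or more peaks, was Crocc, the gene of the ciliary rootlet protein, with 10 peaks at 208 per Mb. Zfpm1, a cofactor gene of GATA factors, had 12 at 200 per Mb, Gcn1 of the amino acid starvation response 12 at 195, and Mxi1, a MYC antagonist gene, 13 at 194. Map3k1 (14 peaks), Klhl18 (10), Iars (10) and Nphp4 (16) lay between 177 and 185 per Mb. These are all between 44.0 and 86.5 kb long, where the median over records of 20 kb or more was 45.3 per Mb. Their strongest peaks scored 129 to 285, so they were dense in peaks of ordinary strength.

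At the other extreme, 6895 records had no peak. Their median length was 5498 bp, against 28580 bp for the records with one. The longest were Nek10, a kinase gene (208 kb), Ccdc85a (202 kb), Itprid1 (173 kb), the provisional record LOC108168680 (160 kb) and Rttn, a centriole gene (159 kb). LOC108168680 is 1 of 105 coding records whose coordinates lie below 3 Mb, where no autosome has a peak (the lowest starts at 3001173). No peak could be counted at these 105, so its lack of one is not an observation. Among 1368 records of 100 to 200 kb, 34 had none, LOC108168680 being 1 of them.

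The strongest peaks near genes lay mostly inside records, whose lengths ran from 31.8 kb (Bfar) to 763 kb (Mdga2). Some also lay in or near a provisional record: Gm46431 for Mctp1, Gm40237 for Tmem125 and Gm46731 for Fbh1. Mctp1, a calcium-binding membrane protein gene, held one of the peaks at the top of the score range (chr13:76513788-76514788, score 3109), 131926 bp past its start. Uxs1, an enzyme gene of proteoglycan synthesis (chr1:43777437-43779062), and Mdga2, an adhesion gene (chr12:67059034-67060191), held peaks of 1626 and 1158 bp at 3100. Tmem125 had a peak at 3100 centred at position -2881 bp relative to its start (chr4:118546751-118548852). Bfar (2597), Pigk (2547), Fbh1 (2396) and Rsrc1 (2389) came next, with their peaks inside the record. A single strong peak did not mean many: Bfar had 1 peak in all, Fbh1 2 and Mdga2 8, whereas Mctp1 had 20 with a median score of 145.

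In gene-end windows the order after Tmem125 was Nudt21, a factor gene of mRNA 3′ processing (2116), Brox (1382), the mitochondrial leucyl-tRNA synthetase gene Lars2 (1379), Prpf18 (1317), Tbpl1, a TBP-like gene active in spermatids (1226), Oasl1 (1217) and Zfp236 (1161). The peaks of Nudt21 and Lars2 lay inside the gene, 974 and 682 bp before its end. Those of Brox, Tbpl1 and Oasl1 lay before the start, centred at -2047, -3256 and -691 bp relative to it. The widest, at Tbpl1 and Zfp236, spanned 2648 and 2635 bp. Prpf18 and Zfp236 had no promoter entry, so their strand was not used.

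Gene families differed widely at the gene ends. Families of chemosensory receptors were marked less often than all records: 112 of 1104 olfactory receptor genes (10.1%, 8.50 to 12.1%), 5 of 230 type 1 vomeronasal receptor genes (2.17%, 0.932 to 4.99%) and 8 of 122 of type 2 (6.56%, 3.36 to 12.4%) had a gene-end peak, against 23.2% of all records. Their promoter windows had a median of 1 CpG. Where an olfactory receptor gene was marked, its peak could be strong, as at Olfr761 (588), Olfr1055 (544), Olfr11 (522) and Olfr1033 (515). Olfactory receptor genes had a promoter peak at 3 of 721 promoters with a ratio under 0.2 (0.416%, against 1.80% of all promoters). The counts were 7 of 197 between 0.2 and 0.4 (3.55%, against 4.53%) and 5 of 19 between 0.4 and 0.6 (26.3%, against 5.43%). The last is a count over few promoters.

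Keratin genes, which encode the intermediate filaments of epithelia and hair, had the highest share among the families searched by symbol: 27 of 53 (50.9%, 37.9 to 63.9%) at a gene end, against 23.2% of all records, and 12 of 36 (33.3%, 20.2 to 49.7%) in the promoter window, against 2.78% of all genes. Krt75 (376), Krt10 (290), Krt2 (273) and Krt82 (167) led at promoters, and the simple-epithelium keratins Krt8 (106) and Krt7 (71.1) were among the 12. At a gene end Krt4 (246) came after Krt75, and Krt82 and Krt90 shared a peak. Their peaks sat at starts: 13 of 36 had one in the start window (36.1%, against 10.3% of all genes) and 4 of 36 in the end window (11.1%, against 14.8%). Over record and flanks keratins had 112 peaks per Mb, where all records had 46.9.

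Ribosomal protein genes were marked at a gene end in 33 of 80 (41.2%, 31.1 to 52.2%), against 23.2% of all records. The start window held a peak in 20 of 60 (33.3%, against 10.3% of all genes) and the end window in 9 of 60 (15%, close to the 14.8% of all genes). The promoter window held one in 5 of 60 (8.33%, 3.61 to 18.1%, against 2.78%). These 5 were Rpl10l (296) and Rpl39l (112), which are testis-expressed retrogene copies, the provisional copy Rpl37rt (64.2), and Rpl22 (84.7) and Rps16 (70.0). The start window reaches 500 bp into these short genes. The strongest gene-end peak was at Rps14 (410). Mitochondrial ribosomal protein genes had 22 of 78 (28.2%) at a gene end and 0 of 69 at the promoter, and proteasome subunit genes 13 of 39 and 2 of 32. Among the proteasome genes Psma6 had the highest gene-end peak (443), and Psmb11, the thymus-specific subunit gene, the highest promoter peak (360).

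For the other families, set against 23.2% of all records, the counts at gene ends were 86 of 388 for Zfp zinc finger genes (22.2%), 105 of 362 for solute carriers (29.0%), 9 of 39 for Hox genes, 10 of 41 for forkhead box genes, 4 of 12 for T-box genes, 3 of 18 for SRY-box genes, 14 of 39 for myosins and 9 of 42 for collagens. They were 9 of 42 for beta-defensins, 15 of 99 for cytochrome P450 genes, 14 of 92 for potassium channels, 4 of 23 for cadherins, 3 of 19 for ADAMTS proteases, 1 of 11 for laminins and 1 of 15 for axonemal dynein heavy chains. At promoter windows 1 of 325 zinc finger genes had a peak (0.308%, 0.0543 to 1.72%, against 2.78% of all genes), which was Zfp180 (233). At gene ends Zfp236, Zfp647 (663), Zfp706 (588) and Zfp488 (546) had strong peaks. Hoxa7 and Hoxa9 shared 1 gene-end peak (191), and Hoxb1 had one at 185. Clustered protocadherin genes, whose records overlap and share peaks, had 27 of 57 with a gene-end peak, led by Pcdhb22 (451), and the promoter table held none of them. Slc2a2, a glucose transporter gene of liver and islets (488), led the solute carriers. Cyp2c38 (729) and Cyp2c67 (717) led the P450 genes, and Col6a2 (346) the collagens.

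**Figure D5:**
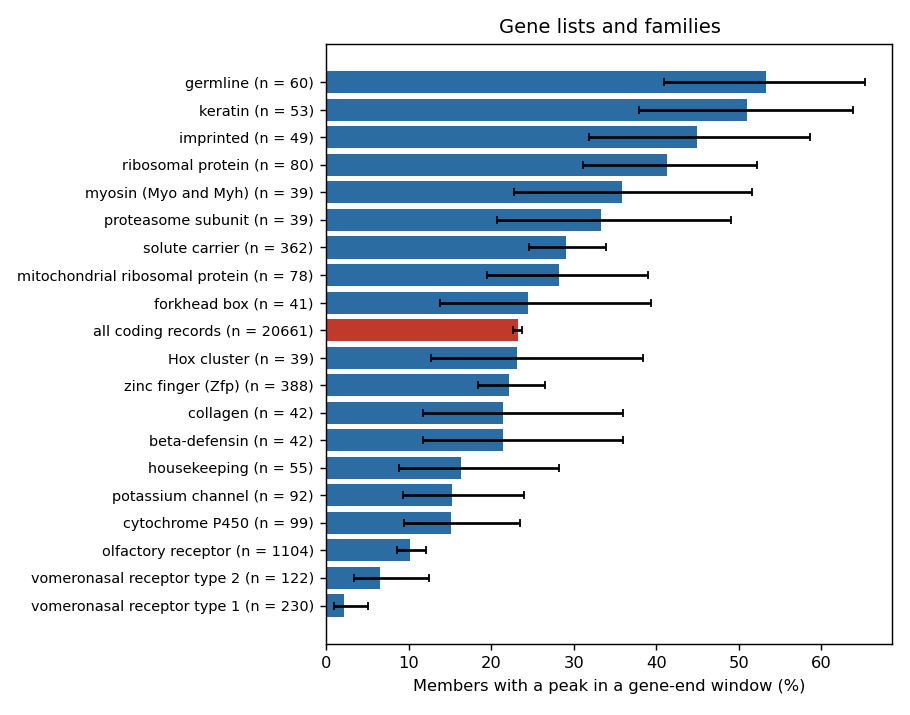
Share of members with a peak in a gene-end window (x axis, percent) for gene lists and families with at least 20 members in the promoter table, with the number of members; the red bar is all protein-coding records and error bars are Wilson 95% intervals for counting error. Germline and keratin genes are at the top with 53.3 and 50.9%, and type 1 vomeronasal receptor genes at the bottom with 2.17%.

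Genes that define the cell types of fat were read in the same windows. Of 24 adipocyte genes, 16 had a peak in the record or flanks (66.7%, against 66.6% of all records) and 3 at a gene end (12.5%, against 23.2%): Pck1 of glyceroneogenesis (204), the adiponectin gene Adipoq (109) and Lpl (84.7). In the 18 with known strand, which do not include Lpl, the start window held a peak in 0 and the end window in 2, and 0 of 18 had a promoter peak. At this number of genes none of these counts is distinguishable from the shares of all genes (10.3, 14.8 and 2.78%). Inside records, Lep, the leptin gene (451), Acvr1c (433), Acsl1 (339) and Pnpla2, the lipase gene (271), had the highest peaks. Of 16 leukocyte genes 7 had a gene-end peak (43.8%, 23.1 to 66.8%), an interval that just includes the 23.2% of all records. Cd8a (260), Itgam (85.3), Itgax (84.0) and Fcgr1 (69.7) were at the top. Of the 10 with known strand, 4 had it in the start window (40%, against 10.3% of all genes), a count over few genes. Endothelial genes had 2 of 10 (Cdh5, 123, and Eng, 72.0), mesothelial and fibroblast genes 3 of 10 (Lrrn4, 102, Krt19, 91.1, and Lum, 75.5) and epididymal genes 1 of 12 (Lcn10, 114). No member of these lists had a promoter peak, and each list's Wilson interval includes the 2.78% of all genes. Peaks measure methylated DNA and not expression, so these counts do not check the tissue label.

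Classes of non-coding records lay on both sides of the 23.2% of protein-coding records. Long non-coding RNA records had a gene-end peak in 26.9% (3341 of 12408), pseudogenes in 29.9% (2659 of 8884) and transcribed pseudogenes in 33.8% (147 of 435). For microRNA records the share was 28.4% (323 of 1136), and for small nuclear RNA records 26.1% (243 of 931). Small nucleolar RNA records had 16.3% (210 of 1286), transfer RNA records 18.7% (73 of 391) and immunoglobulin and T cell receptor variable segments 10.7% (42 of 394). Of 919 autosomal microRNA hairpins in RefSeq, 63 (6.86%, 5.40 to 8.67%) lay under a peak. No share was computed for other stretches of that size, so the 6.86% has no background here. Of the 63, 48 were inside a protein-coding record, as were 617 of all 919 hairpins. Neighbouring hairpins can share a peak.

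The hairpins under the strongest peaks with an official microRNA symbol were Mir219a-2 and Mir219b, which lie on opposite strands of the same stretch in Cercam (chr2:29844867-29846118, score 448), Mir7057 in Lrrk1 (380) and Mir543 (362). Their mature sequences from RefSeq are printed 5′ to 3′ with the seed, bases 2 to 8, in capitals, since the seed sets which transcripts a microRNA pairs with. No seed is shared among them.
mmu-miR-219a-5p: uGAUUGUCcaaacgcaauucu
mmu-miR-219b-5p: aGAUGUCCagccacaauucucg
mmu-miR-219b-3p: aGAAUUGCguuuggacaaucagu
mmu-miR-7057-5p: cAGGAGAGgacucaaguu
mmu-miR-7057-3p: uAAUUUGAugucuuucuccacc
mmu-miR-543-5p: aAGUUGCCcgcguguuuuucg
mmu-miR-543-3p: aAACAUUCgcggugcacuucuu
Mir543 and Mir411 (score 295) belong to the large imprinted microRNA cluster of chromosome 12, where Rtl1 had a gene-end peak of 105. miR-219a is known for its role in myelin-forming cells. The peak at Mir219a-2 was 1252 bp wide and has its midpoint in a gene-end window of Cercam.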

How the data were processed

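The deposited file lists the peaks of 1 MeDIP-seq library. Its coordinates are on mm10, per the submitters' processing notes. DNA was extracted with a column kit, per the labels' protocols. Peak names carry the MACS prefix. No source used here gives the aligner, duplicate handling, input control, or the caller's settings and version. Read depth is therefore unknown. Each peak has the authors' score, which the authors deposited without stating its scale.

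Peaks on autosomes were joined to RefSeq gene records (GRCm38.p6, 20661 protein-coding). A record was marked by 1 bp of overlap with the record or 2000 bp on each side. Gene-end windows ran from 2000 bp outside to 500 bp inside at both ends. Features were set by peak midpoint. Strand and CpG content came from the promoter table. The table of genes has no exons, and 105 of its coding records have coordinates below 3 Mb, where no peak lies. They were kept, and values without them are given for the features, the chromosomes and the windows of 1 Mb. Other values shift too, such as the records with no peak (6790 without them). Density beyond 200 kb from a coding record was 24.8 peaks per Mb without them. Overlap counts were equal to those of bedtools 2.31.1 for all 20661 records, and the code was tested on simulated data. Computation used scipy 1.17.1 and pandas 2.3.3 with numpy 2.4.6 under Python 3.11.15, and plots used matplotlib 3.10.9.

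Members and lists were chosen with earlier results of these data known. Of 59 housekeeping symbols 1 did not match. Members off the autosomes or not protein-coding were dropped. Symbols of Gm with digits and symbols ending in Rik were passed over in the rankings. Named genes were the 8 highest of the others per ranking, the 5 longest unmarked and up to 4 per list by gene-end score. Promoter rankings and the further list members named were added after values were seen. The patterns for ribosomal protein genes (to remove kinase genes) and myosins were corrected after values were seen. The strand-aware profile, CpG-number classes and microRNA overlap were also added then. Values were recomputed with the top-scoring 50% of peaks, with peaks under 500 bp apart joined, with other windows, with all records and with X and Y.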

Additional observations from a re-analysis of the deposited data

How the results depend on the processing

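Of 72 alternative values, 55 stayed within 1.5 times the count or within the counting interval of the value reported, 17 moved and 0 reversed. With the 50% of peaks that scored highest (48038 peaks, 100.3 or more), records held 1.23 times the density between genes, median score and width at gene ends were 155 and 535 bp, 2465 genes and 3 housekeeping genes had a gene-end peak, and the promoter shares at ratios under 0.2, 0.4 to 0.6 and 0.8 to 1.0 were 0.932, 3.11 and 0.481%, in the same order. With peak midpoints within 500 bp of the promoter window they were 3.12, 7.20 and 1.44%. With all gene records, 24235 had a peak and 11946 a gene-end peak, and median score and width at gene ends were 100.2 and 497 bp. Germline genes with a gene-end peak ranged from 22 to 34 and imprinted ones from 18 to 22 over the alternatives. The ratio of the last kb of genes to the kb before their start was 3.94 with the top-scoring peaks and 3.19 with joined peaks, 2 settings chosen after seeing the data. Leaving out the 105 coding records below 3 Mb, also chosen after seeing the data, gave a ratio of density in records to density between genes of 1.32 and moved no other value. Gene families beyond the germline, imprinted and housekeeping lists were not recomputed. No paired analysis was possible because there was 1 library. Read depth sets which weak regions pass the caller, and it is unknown.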

Other observations

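Promoter windows that resemble one another were counted, because reads from near-copies cannot always be placed. Of 20084 windows, 861 shared at least 50% of their 20-base words with the promoter of a gene elsewhere, and 21 of these (2.44%, 1.60 to 3.70%) had a peak, against 466 of 19223 others (2.42%, 2.22 to 2.65%). The marked copies had wider peaks: 8 of 21 lay under peaks of 2000 bp or more, against 6 of 466. Without the copies the share by CpG observed/expected ratio kept its shape, with 1.92% under 0.2, 4.53% between 0.2 and 0.4, 5.40% between 0.4 and 0.6, 2.02% between 0.6 and 0.8, 0.726% between 0.8 and 1.0 and 0.239% at 1.0 or more.

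Outside the autosomes the same list held 3160 peaks on X and 2309 on Y, which were left out of every count above.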
